A study of Mus musculus with 12 samples.

Results

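The 10 genes described here carry the Notch signal from one cell to the nucleus of its neighbour: the receptors Notch1, Notch2, Notch3 and Notch4, the ligands Jag1 and Dll1, and the target genes Hes1, Hey1, Hey2 and Heyl. They were chosen by name, as the rows of the deposited count table with these gene symbols, and are 10 of its 56350 genes. All 10 were among the 16484 genes tested, that is, with over 10 counts in 3 or more of the 12 libraries, and 8 of them passed that minimum in every library. Hey2 passed through libraries treated with FG-4592 (FG) alone and Heyl through osteocyte libraries alone, so that both had to be higher there to be tested at all.

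RNAseq was done on MPC2 cells, a single clone of conditionally immortalized mouse mesenchymal cells, in 4 conditions with 3 libraries each. MSCs were undifferentiated cells grown at 33 °C, and osteocytes were cells of the same clone differentiated for 3 weeks at 37 °C in osteogenic medium. Each cell type received the vehicle DMSO or 50 µmol/L FG-4592 (Roxadustat), an inhibitor of the prolyl hydroxylases that mark HIF proteins for destruction, for 48 hours. All 4 conditions share the immortalized background of the clone, and none is labelled with a deletion. Temperature, medium and culture time changed together with differentiation, so that their effects cannot be told apart.

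A Notch receptor is a membrane protein that is cut when a Jagged or Delta ligand on an adjacent cell pulls on it. Gamma-secretase releases its intracellular domain, which enters the nucleus, binds the DNA-binding protein Rbpj and turns on genes of the HES and HEY families, themselves repressors of transcription. In the bone lineage, Notch signalling is known to hold progenitors back from maturing into osteoblasts, and it also acts in mature osteocytes.

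Library totals ranged from 52829185 to 68108470 counts, so that a floor of 3 counts lay between 0.0447 and 0.0545 CPM (counts scaled by library total and TMM factor to a common size, as used throughout), a limit that covers counting error only. HIF target genes checked the treatment: 4 of 5 rose with FG-4592 in MSCs and 5 of 5 in osteocytes, and the exception, Egln3, had at most 0.0156 CPM in any MSC library. The osteocyte markers Dmp1 and Phex reached 9.12 to 13.7 and 50.6 to 63.0 CPM in vehicle-treated osteocytes, against 0.768 to 1.90 and 0.868 to 1.10 CPM in vehicle-treated MSCs. Of the 10 osteoblast and osteocyte markers tested, out of 13 listed, 6 rose with differentiation under vehicle and 2 fell, Alpl (-0.33) and Ibsp (-0.74). With FG-4592, 7 of the 10 fell and 1, Fgf23, rose in osteocytes (from at most 0.0753 to between 1.29 and 1.92 CPM), and 6 fell and 1, Spp1 (0.52), rose in MSCs. In osteocytes Phex went down to 2.06 to 3.78 CPM (log2 fold change -4.35) and Dmp1 to 1.39 to 2.42 CPM (-2.44). Sost, which marks mature osteocytes, had 0 counts in all 12 libraries. Markers of other cell types moved with the conditions. Adipocyte markers summed to 1959 to 2714 CPM in vehicle-treated and 2293 to 2694 CPM in FG-treated osteocytes, but to 70.0 to 89.3 CPM in MSCs, and Adipoq made up most of the osteocyte sum. Mural cell markers, led in MSCs by the smooth muscle actin gene Acta2 and in osteocytes by Pdgfrb, summed to 2641 to 2850 CPM in vehicle-treated MSCs and 1114 to 1133 CPM after FG-4592, and to 1860 to 2042 and 828 to 912 CPM in osteocytes. Chondrocyte markers, of which 3 of 6 were tested, summed to 81.9 to 91.1 CPM in vehicle-treated and 146 to 161 CPM in FG-treated MSCs, and to 114 to 135 and 375 to 455 CPM in osteocytes, where all 3 rose with FG-4592. Endothelial markers, which matter here because Notch4, Hey1 and Hey2 are well known from vessels, summed to 1.67 to 4.04 CPM over all libraries. The part of these cell types in the results below was not tested, and in bulk RNA fewer cells of a type and less RNA per cell cannot be told apart. The labels do not say that libraries of a condition came from separate cultures, so that p-values measure the spread between these libraries.

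Levels per kilobase use the deposited exonic length of each gene, from 2037 bases for Hes1 to 14232 for Notch1. Which transcripts the cells used was not tested, so that orders and shares between genes rest on that length. Per kilobase of exon, Notch2 had the highest level of the 10 genes in every condition. Its mean was 17.9 CPM per kb in vehicle-treated MSCs, 17.1 in FG-treated MSCs, 20.9 in vehicle-treated osteocytes and 27.0 in FG-treated osteocytes. In vehicle-treated MSCs it was followed by Jag1 (9.51 CPM per kb) and Notch3 (9.26), which overlapped, then by Hes1 (3.55) and Hey1 (2.62), which also overlapped, Notch1 (1.89), Notch4 (1.29) and Dll1 (0.635). Heyl and Hey2 were at the floor there. After FG-4592, MSCs had Notch3 (12.9 CPM per kb) above Jag1 (4.33), and Hey1, Notch4, Hes1 and Notch1 formed a run from 1.90 to 1.17 in which each gene overlapped the next. In vehicle-treated osteocytes the order after Notch2 was Jag1 (16.5 CPM per kb), Hes1 (10.3), Notch3 (8.69), Notch1 (3.93), Notch4 (0.984), Heyl (0.938), Dll1 (0.532) and Hey1 (0.473), of which Notch4 overlapped Heyl and Dll1 overlapped Hey1. FG-treated osteocytes had Notch3 (15.0 CPM per kb) above Jag1 (11.1) and Hes1 (7.09), then Notch1 (3.52), Notch4 (2.78), Hey1 (0.454), Dll1 (0.279), Heyl (0.210) and Hey2 (0.0388), with only Dll1 and Heyl overlapping.

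**Figure D1:**
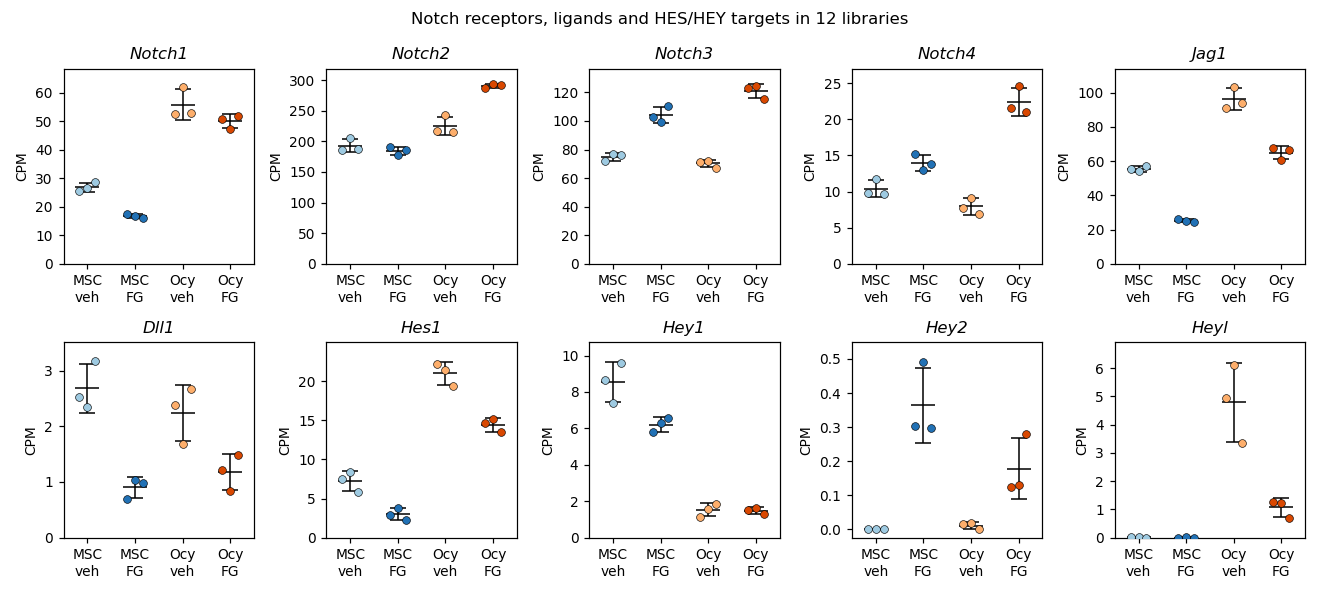
Level of each gene (y axis, CPM from 0) in the 12 libraries, by condition (x axis, veh is vehicle and FG is FG-4592). Points are libraries and bars give the mean and SD of 3. Notch3 and Notch4 were higher in every FG-treated library than in the vehicle-treated libraries of the same cell type, Jag1, Dll1 and Hes1 were lower, and Hey1 was low in all 6 osteocyte libraries.

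The 4 receptors summed to 30.4 ± 1.39 CPM per kb (SD, n = 3) in vehicle-treated MSCs, 32.9 ± 1.19 in FG-treated MSCs, 34.5 ± 2.12 in vehicle-treated osteocytes and 48.2 ± 0.691 in FG-treated osteocytes. Notch2 and Notch3 together held most of this sum in every library. The share of Notch3 was 30.5% ± 0.764 in vehicle-treated and 39.1% ± 1.30 in FG-treated MSCs, and 25.2% ± 1.14 and 31.0% ± 0.889 in the matching osteocytes. Notch1 held 6.23% and 3.57% of the sum in MSCs, and 11.4% and 7.30% in osteocytes, without and with FG-4592. The libraries of vehicle and FG-4592 did not overlap for either gene in either cell type. Among the 4 HES and HEY genes, Hes1 and Hey1 stood near each other in MSCs: Hes1 held 57.2% ± 7.55 and Hey1 42.7% ± 7.58 of their sum in vehicle, and Hes1 held 42.5% ± 6.45 and Hey1 55.2% ± 6.79 in FG-4592. In osteocytes Hes1 held 88.0% ± 1.61 in vehicle and 91.0% ± 0.679 in FG-4592, Hey1 held 4.09% and 5.82%, and Heyl held 7.92% and 2.66%. The sum of the 4 genes was 6.17 ± 0.318 CPM per kb in vehicle-treated and 3.47 ± 0.399 in FG-treated MSCs, and 11.7 ± 0.861 and 7.79 ± 0.525 in osteocytes. Of the ligand sum, Jag1 held between 92.9% and 98.1% in every library.

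**Figure D2:**
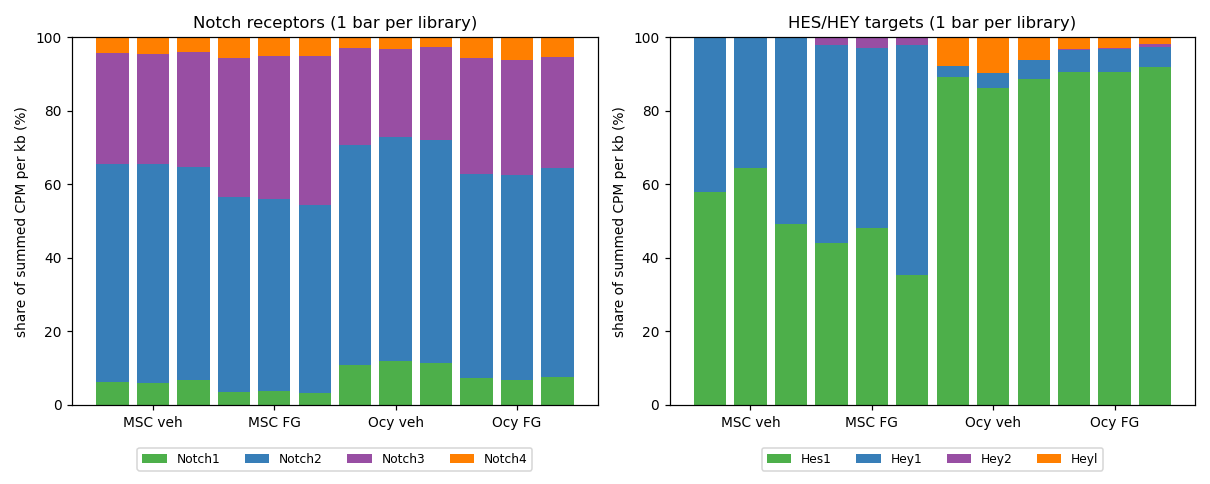
Share of each gene in the summed level per kb of the 4 receptors (left) and the 4 HES and HEY genes (right). The y axis gives percent, each bar is 1 library, and 3 neighbouring bars share the condition named under them. Notch2 held 51.1% to 61.0% of the receptor sum in all libraries, and Hey1 held 35.6% to 62.6% of the HES and HEY sum in MSCs but 2.90% to 6.09% in osteocytes.

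The genes lie on 6 chromosomes of the mm10 build, on which the counts were made. The receptors are at chr2:26457903-26516663 (Notch1, minus strand), chr3:98013527-98150361 (Notch2, plus), chr17:32120820-32166852 (Notch3, minus) and chr17:34564268-34588503 (Notch4, plus). The ligands are at chr2:137081456-137116644 (Jag1, minus) and chr17:15367354-15376872 (Dll1, minus). The targets are at chr16:30064384-30067796 (Hes1, plus), chr3:8663359-8667256 (Hey1, minus), chr10:30832359-30842801 (Hey2, minus) and chr4:123233556-123249875 (Heyl, plus). Read pairs were counted for every gene they overlap and without strand, so shared exonic bases can carry counts of another gene. Notch1 shares 1068 exonic bases with 0610009E02Rik, on the opposite strand, which had 24 to 68 counts in a library, and 414 with Gm13568. Notch2 shares 541 with Gm42820, Notch3 488 with Gm17276 and Dll1 867 with A930024N18Rik, and none of these partners had more than 24 counts in any library. The other 6 members share none.

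RefSeq (GRCm38.p6) gave promoter windows of 250 bases before to 50 after a start for 7 of the 10 genes, namely the 4 receptors, Jag1, Dll1 and Hey2, and not for Hes1, Hey1 and Heyl. Stretches are printed for the 3 genes that rose with FG-4592 in both cell types, Notch3, Notch4 and Hey2, and for Jag1, the most abundant ligand, which fell in both. Capitals mark matches, on either strand, to TGGGAA (the core that Rbpj recognizes), ACGTG and GCGTG (the 2 forms of the core that HIF recognizes) or CACNAG (a form of the N-box that HES proteins recognize). Each stretch is read 5′ to 3′ on the gene's own strand and stops before the first exon of the gene: chr17:32166891-32167140 (minus) for Notch3, chr17:34564045-34564267 (plus) for Notch4, chr10:30842802-30843033 (minus) for Hey2 and chr2:137116645-137116770 (minus) for Jag1.
Notch3: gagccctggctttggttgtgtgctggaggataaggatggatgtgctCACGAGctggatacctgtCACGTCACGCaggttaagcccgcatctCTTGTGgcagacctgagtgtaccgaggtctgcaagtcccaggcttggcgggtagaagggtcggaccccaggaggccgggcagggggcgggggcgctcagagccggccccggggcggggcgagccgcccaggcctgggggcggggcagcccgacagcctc
Notch4: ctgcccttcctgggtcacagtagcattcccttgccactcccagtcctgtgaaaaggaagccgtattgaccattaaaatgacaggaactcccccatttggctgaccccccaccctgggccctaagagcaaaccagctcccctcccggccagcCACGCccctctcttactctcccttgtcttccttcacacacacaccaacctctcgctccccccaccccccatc
Hey2: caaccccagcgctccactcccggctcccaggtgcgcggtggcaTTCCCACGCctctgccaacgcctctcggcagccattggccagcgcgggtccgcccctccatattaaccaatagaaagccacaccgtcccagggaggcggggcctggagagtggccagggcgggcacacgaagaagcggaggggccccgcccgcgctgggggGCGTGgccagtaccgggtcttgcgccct
Jag1: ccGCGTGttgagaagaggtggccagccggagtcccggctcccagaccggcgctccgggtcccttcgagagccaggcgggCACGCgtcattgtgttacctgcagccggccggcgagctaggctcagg
The GCGTG form was present in the window of all 7 genes matched, against 32.4% of all 32851 promoter windows of the same length. The other HIF form was present in Notch3 alone, at 2 places, against 19.6% of all windows, and the Rbpj core in Hey2 alone, at 2 places, against 25.6%. In Notch3 the match to the rarer HIF form ends 182 bases before the start and one to the commoner form begins 181 bases before it, both on the opposite strand. In Hey2 an Rbpj core on the opposite strand lies 207 to 202 bases before the start and shares 2 bases with a HIF core. Its other Rbpj core, on the same strand, spans the start and also shares 2 bases with a HIF core. That core and the second match of Notch3 to the rarer HIF form, 38 to 42 bases after the start, lie outside the printed stretches. The N-box form was present in Notch1, Notch2, Notch3 and 1 of the 2 windows of Dll1, against 42.5% of all windows. These matches describe letters in a window and are not binding sites shown by these data.

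The treatment comparison asks which of the 10 genes responded to FG-4592, first in MSCs and then in osteocytes. The receptors went different ways. Notch1, a receptor used throughout development, had 25.4, 26.6 and 28.6 CPM in vehicle-treated MSCs and 17.4, 16.8 and 15.9 CPM in FG-treated MSCs. All treated libraries were lower, and the gene fell with a log2 fold change of -0.69 (SE 0.0766, FDR = 2.42e-06, edgeR's quasi-likelihood test adjusted by Benjamini-Hochberg over all 16484 genes, as for every FDR that follows). Its osteocyte libraries had 52.5, 62.2 and 53.0 CPM in vehicle and 51.0, 47.5 and 51.9 CPM in FG-4592. The treated libraries were again lower, but the log2 fold change of -0.16 (95% interval -0.31 to -0.00) did not pass (FDR = 0.0964). With 2 alternative scalings it passed the threshold, at -0.19 with upper-quartile factors and -0.26 with library size alone, as did leaving out vehicle-treated osteocyte replicate 1 (-0.22).

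Notch2, the most abundant receptor, had 186, 205 and 188 CPM in vehicle-treated MSCs and 190.6, 178 and 186 CPM in FG-treated MSCs. The libraries overlapped and the log2 fold change was -0.06 (95% interval -0.18 to 0.05, FDR = 0.396), although it passed at -0.15 with library size alone. In osteocytes Notch2 had 216, 242 and 216 CPM in vehicle and 287, 294 and 292 CPM in FG-4592. It rose there in all treated libraries, by 0.37 on the log2 scale (SE 0.0550, FDR = 3.71e-05).

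Notch3, a receptor known for its role in smooth muscle and pericytes, had 71.6, 76.9 and 76.2 CPM in vehicle-treated MSCs and 102.8, 99.3 and 110.5 CPM in FG-treated MSCs. In osteocytes it had 71.6, 71.9 and 67.3 CPM in vehicle and 123, 124 and 115 CPM in FG-4592. Every treated library was higher in both cell types, and Notch3 rose by 0.48 (SE 0.0538, FDR = 2.8e-06) in MSCs and by 0.78 (SE 0.0540, FDR = 6.21e-09) in osteocytes. The mural cell markers listed above fell with FG-4592 in 6 of 8 cases in MSCs and in 5 of 8 in osteocytes, while Cspg4 rose in both (0.21 and 1.39) and Mcam rose in osteocytes (0.38). Their part in the change of Notch3 was not tested. Notch4, known chiefly from endothelium, had 9.79, 11.7 and 9.63 CPM in vehicle-treated and 15.2, 12.9 and 13.8 CPM in FG-treated MSCs. Osteocytes had 7.76, 9.15 and 6.90 CPM in vehicle and 21.6, 24.6 and 21.0 CPM in FG-4592. It rose by 0.43 (SE 0.115, FDR = 0.00751) in MSCs and by 1.50, or 2.82-fold, in osteocytes (SE 0.116, FDR = 2.66e-08), where it was the only receptor past both an FDR of 0.05 and a log2 fold change of 1. Of the 4 endothelial markers that passed the filter, out of 10, Tek rose in MSCs and none of the others passed the test in either cell type, and Cdh5 and Kdr, which define endothelium, had at most 1 count in any library.

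Both ligands fell. Jag1, a Jagged ligand, had 55.3, 53.9 and 57.1 CPM in vehicle-treated MSCs and 26.2, 25.1 and 24.4 CPM after FG-4592. Osteocytes had 91.1, 103.4 and 93.7 CPM in vehicle and 67.4, 60.6 and 66.5 CPM in FG-4592. The libraries did not overlap in either cell type, with log2 fold changes of -1.13 (SE 0.0615, FDR = 4.39e-10) in MSCs and -0.57 (SE 0.0594, FDR = 8.98e-07) in osteocytes. Dll1, a Delta-like ligand, was low in every library. It had 2.52, 2.34 and 3.17 CPM in vehicle-treated and 0.688, 1.04 and 0.984 CPM in FG-treated MSCs, a fall with a log2 fold change of -1.56 (SE 0.274, FDR = 0.000253). Osteocyte levels were 2.38, 1.69 and 2.67 CPM in vehicle and 1.22, 0.834 and 1.49 CPM in FG-4592, a fall of -0.93 (SE 0.269, FDR = 0.0101). The osteocyte call rested on FG-treated replicate 2, without which the log2 fold change was -0.73 (FDR = 0.0541).

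Of the targets, Hes1 fell in both cell types. It encodes the repressor most often read as a sign of Notch activity, although other signals also drive it. Hes1 had 7.48, 8.35 and 5.83 CPM in vehicle-treated MSCs and 2.94, 3.84 and 2.31 CPM in FG-treated MSCs. In osteocytes it had 22.2, 21.4 and 19.4 CPM in vehicle and 14.7, 15.2 and 13.5 CPM in FG-4592. All treated libraries were lower than all vehicle-treated libraries of their cell type, and the log2 fold changes were -1.25 (SE 0.162, FDR = 1.23e-05) and -0.54 (SE 0.145, FDR = 0.00612). Hey1, a HEY repressor, had 8.66, 7.40 and 9.60 CPM in vehicle-treated and 5.77, 6.30 and 6.54 CPM in FG-treated MSCs, with a log2 fold change of -0.46 (SE 0.162, FDR = 0.0336). That call was lost without any 1 of 6 libraries, with FDRs from 0.0513 to 0.183. In osteocytes Hey1 had 1.16, 1.60 and 1.87 CPM in vehicle and 1.52, 1.64 and 1.29 CPM in FG-4592, which overlapped (log2 fold change -0.05, 95% interval -0.45 to 0.35, FDR = 0.848).

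The remaining targets were few in counts. Hey2, a HEY repressor of heart and vessel, had 0 counts in every vehicle-treated MSC library and 18, 33 and 19 counts in the FG-treated ones. It was therefore at least 7.19-fold higher, against a floor of 3 counts per library (FDR = 0.000173). In osteocytes it had 1, 1 and 0 counts in vehicle and 8, 8 and 17 counts in FG-4592, a ratio of 16.2 with a counting interval of 4.15 to 139.5 (FDR = 0.00397). Hey2 thus had more counts with FG-4592 in both cell types, but at most 0.492 CPM in any library. It passed the filter through FG-treated libraries alone, so that its FDRs do not stand apart from that filter. With only the 6 osteocyte libraries it did not pass the filter. Heyl, the HEY-like member of the family, was at or below the floor in all 6 MSC libraries. In osteocytes it had 328, 340 and 205 counts in vehicle and 83, 76 and 42 counts in FG-4592, and fell with a log2 fold change of -2.16 (SE 0.333, FDR = 5.74e-05).

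**Figure D3:**
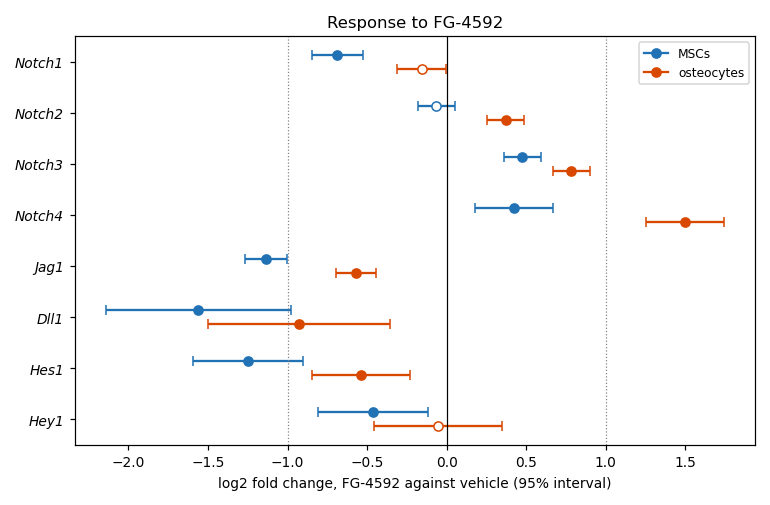
Response to FG-4592 of the 8 genes with more than 10 counts in every library (x axis, log2 fold change against vehicle, with 95% interval) in MSCs and osteocytes. Filled points passed an FDR of 0.05 and dotted lines mark a log2 fold change of 1 in either direction. The osteocyte point lies to the right of the MSC point for each of the 8 genes, with Notch4 farthest apart (0.43 and 1.50).

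In MSCs, 3 of the 10 genes rose with FG-4592 and 5 fell, where 17.6% of all genes tested rose and 20.4% fell. The libraries did not overlap for 8 of the 10, against 50.5% of all genes, and 4 passed both cutoffs (Jag1, Dll1, Hes1 and Hey2), against 9.29%. In osteocytes 4 rose and 4 fell, against 21.9% and 22% of all genes. Here 9 did not overlap, against 51.8%, and 3 passed both cutoffs (Notch4, Hey2 and Heyl), against 10.5%. Hey2 could only be tested because it was higher with FG-4592. Among the 8 genes with more than 10 counts in every library, 2 rose, 5 fell, 7 did not overlap and 3 passed both cutoffs in MSCs. In osteocytes 3 of the 8 rose, 3 fell, 7 did not overlap and 1, Notch4, passed both. Dll1 joined it in osteocytes with library size alone (-1.03), without vehicle-treated replicate 2 (-1.11) or without FG-treated replicate 3 (-1.13), which makes 2 of the 8. The median log2 fold change of the 10 genes was -0.57 in MSCs, where that of all genes was -0.05, and -0.11 in osteocytes, where it was 0.00.

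Whether the response itself differed between the cell types was tested as the osteocyte response minus the MSC response. A response is called higher where its log2 fold change was the more positive one, which includes a weaker fall. In that sense it was higher in osteocytes for 6 of the 10 genes and lower for 0, against 13.3% and 11% of all genes tested. Only 1 of the 10, Notch4, passed both cutoffs, against 5.01%. In osteocytes Notch2, Notch3 and Notch4 rose, each with a log2 fold change above that in MSCs. Those of Notch1, Jag1 and Hes1 were below 0 in both cell types. The difference of Notch4 was the largest of the 6, at 1.07 (SE 0.162, FDR = 0.000157). It was under the log2 cutoff without vehicle-treated MSC replicate 2 (0.93), vehicle-treated osteocyte replicate 3 (0.98) or FG-treated osteocyte replicate 2 (0.995), each leaving 0 of the 10 past both. The other receptors also differed, with 0.53 for Notch1 (FDR = 0.00166), 0.44 for Notch2 (FDR = 0.000646) and 0.31 for Notch3 (FDR = 0.0071). Jag1 differed by 0.57 (FDR = 0.000144), and for it, as for Notch1 and Hes1, the log2 fold change lay closer to 0 in osteocytes, where vehicle-treated levels were higher. The difference of Hes1 was 0.71 (FDR = 0.0253), and it was lost without any 1 of 8 libraries, with FDRs up to 0.0982. That of Notch3 was lost without vehicle-treated MSC replicate 2 (FDR = 0.0579) or 3 (FDR = 0.0514). The difference did not pass for Dll1 (0.63, 95% interval -0.18 to 1.44), Hey1 (0.41, -0.12 to 0.94), Hey2 (FDR = 0.17) or Heyl (FDR = 0.893). The fitted differences of the last 2 were below 0 and are not given as sizes, since Hey2 was at or below the floor in the vehicle libraries of both cell types and Heyl in all MSC libraries.

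Differentiation was compared within vehicle and within FG-4592. With differentiation under vehicle, Notch1, Notch2, Jag1, Hes1 and Heyl rose and Notch4 and Hey1 fell. Notch1 rose by 1.06, or 2.08-fold (SE 0.0750, FDR = 6.73e-09), from the CPM values given above, and all 3 osteocyte libraries stood above all 3 MSC libraries. Jag1 rose by 0.79 (SE 0.0598, FDR = 1.41e-08) and Hes1 by 1.54, or 2.91-fold (SE 0.150, FDR = 3.16e-07), so that a receptor, its ligand and a target gene were all higher in the osteocyte cultures. Hey1 went the other way, with a log2 fold change of -2.47 (SE 0.179, FDR = 8.54e-09), from 7.40 to 9.60 CPM in MSCs to 1.16 to 1.87 CPM in osteocytes. Heyl went from 2, 1 and 0 counts to 328, 340 and 205 counts, a ratio of 283.1 with a counting interval of 96.6 to 1376 (FDR = 4.97e-09). The fall of Hey1 was larger than the spread between libraries, whereas Heyl could only be tested because it was higher in osteocytes.

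The smaller changes with differentiation under vehicle were those of Notch2 (0.22, SE 0.0550, FDR = 0.00334) and Notch4 (-0.39, SE 0.117, FDR = 0.0108). The call of Notch4 was lost without vehicle-treated MSC replicate 2 (-0.26, FDR = 0.114) or vehicle-treated osteocyte replicate 3 (-0.30, FDR = 0.0556). Notch3 (-0.09, 95% interval -0.21 to 0.02, FDR = 0.168) and Dll1 (-0.25, -0.81 to 0.30, FDR = 0.445) did not pass, and Hey2 was at the floor in both cell types. Markers of other cell types moved in the same comparison. Adipocyte markers rose in 6 of 6 tested genes. Of 8 mural markers 4 rose, Mcam 20.1-fold and Rgs5 18.8-fold among them, and 2 fell, including Acta2 (log2 fold change -1.34). Of 3 chondrocyte markers Col2a1 (79.9-fold) and Comp (6.69-fold) rose and Sox9 fell, and of 4 endothelial markers Tek (8.13-fold) and Pecam1 (3.40-fold) rose. The part of these lists in the members' changes was not tested.

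With differentiation under FG-4592, 7 of the 10 genes rose and 1 fell. Notch1 rose by 1.58 (SE 0.0767, FDR = 4.23e-11), Notch2 by 0.66 (FDR = 4.1e-08), Notch3 by 0.22 (FDR = 0.00269) and Notch4 by 0.68 (SE 0.112, FDR = 7.49e-05). All 4 receptors were therefore higher in osteocytes than in MSCs when both had FG-4592, and Notch4 had the opposite direction to that under vehicle. Jag1 rose by 1.36 (SE 0.0616, FDR = 1.87e-11) and Hes1 by 2.25 (SE 0.160, FDR = 5.36e-09). Heyl had 0, 1 and 0 counts in FG-treated MSCs, and 201 counts in all in the osteocytes gave a ratio of 205.4 (counting interval 36.4 to 8152, FDR = 1.71e-07). Hey1 fell again, with a log2 fold change of -2.06 (SE 0.179, FDR = 5.77e-08). Dll1 (0.38, 95% interval -0.22 to 0.97) did not pass (FDR = 0.269), nor did Hey2, at 33 counts in osteocytes against 70 in MSCs (FDR = 0.194).

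**Figure D4:**
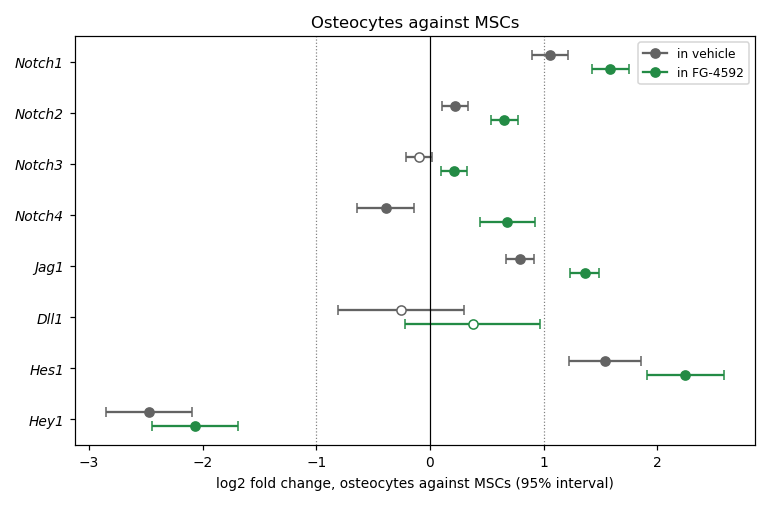
Difference of osteocytes from MSCs (x axis, log2 fold change with 95% interval) for the 8 genes with more than 10 counts in every library, in vehicle and in FG-4592. Filled points passed an FDR of 0.05 and dotted lines mark a log2 fold change of 1 in either direction. Hey1 lies at -2.47 and -2.06, Hes1 at 1.54 and 2.25, and Notch4 on opposite sides of 0.

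Under vehicle 5 of the 10 rose and 2 fell with differentiation, against 26% and 24.9% of all genes tested. The libraries of 7 did not overlap, against 56.9%, and 4 passed both cutoffs (Notch1, Hes1, Hey1 and Heyl), against 15.9%. Under FG-4592 the 7 that rose and the 1 that fell stood against 30.5% and 25.3% of all genes. There 9 did not overlap, against 64.1%, and 5 passed both cutoffs (those 4 and Jag1), against 18.3%. Heyl could only be tested because it was higher in osteocytes. Among the 8 genes with more than 10 counts in every library, 4 rose, 2 fell, 6 did not overlap and 3 passed both cutoffs under vehicle. Under FG-4592, 6 of the 8 rose, 1 fell, 7 did not overlap and 4 passed both. The treatment and differentiation comparisons share libraries, and the response difference is also the difference between the differentiation changes under FG-4592 and under vehicle.

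The rest of the pathway was taken from a list of 61 genes, of which 52 were tested: ligands and ligand-like genes, receptor processing enzymes and gamma-secretase, glycosyltransferases that modify the receptors, the nuclear complex, ubiquitin ligases and trafficking genes, and other targets. With FG-4592, 13 of the 52 rose and 11 fell in MSCs, against 17.6% and 20.4% of all genes tested, and 19 rose and 9 fell in osteocytes, against 21.9% and 22%. Rbpj, the DNA-binding partner of every Notch receptor, had 252 to 263 CPM in vehicle-treated and 363 to 370 CPM in FG-treated MSCs, and 194 to 214 and 400 to 427 CPM in osteocytes. It rose by 0.50 (SE 0.0489, FDR = 5.09e-07) and by 1.06 (SE 0.0493, FDR = 4.76e-11), and its response differed between the cell types by 0.56 (FDR = 2.43e-05). Rbpj fell with differentiation under vehicle (-0.37) and rose under FG-4592 (0.19). Tle3, a corepressor of the Groucho family that HES proteins recruit, rose by 0.29 in MSCs and 0.96 in osteocytes, and its response differed by 0.67 (FDR = 1.64e-05).

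Beside them, Myc rose by 0.75 and 0.87 in MSCs and osteocytes and Ccnd1 by 0.51 and 0.61. Both are growth and cell cycle genes with Notch among the signals known to drive them. Snai2, a repressor of epithelial genes that marks mesenchymal cells, fell with log2 fold changes of -1.14 and -1.66, and its response was lower in osteocytes by -0.52. Lfng, a Fringe enzyme that adds sugars to the receptors, fell by 0.71 in MSCs and by 1.19 in osteocytes on the log2 scale, with a difference of -0.48. Eogt, which adds another sugar to the receptors' repeats, fell by 0.41 and by 0.77. Neurl1b, a ubiquitin ligase that acts on ligands, fell by 0.94 and by 1.06, and the ligand-like Dlk2 fell in MSCs by 1.30. Spen, a corepressor bound by Rbpj, differed in its response by 0.48 (FDR = 0.0158). Hif1an, the asparagine hydroxylase that acts on HIF and also on Notch receptors, had a log2 fold change of 0.09 in MSCs that did not pass, rose by 0.41 in osteocytes, and differed by 0.32 (FDR = 0.00721). Over the 52 genes the response was higher in osteocytes for 10 and lower for 5, against 13.3% and 11% of all genes.

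**Figure D5:**
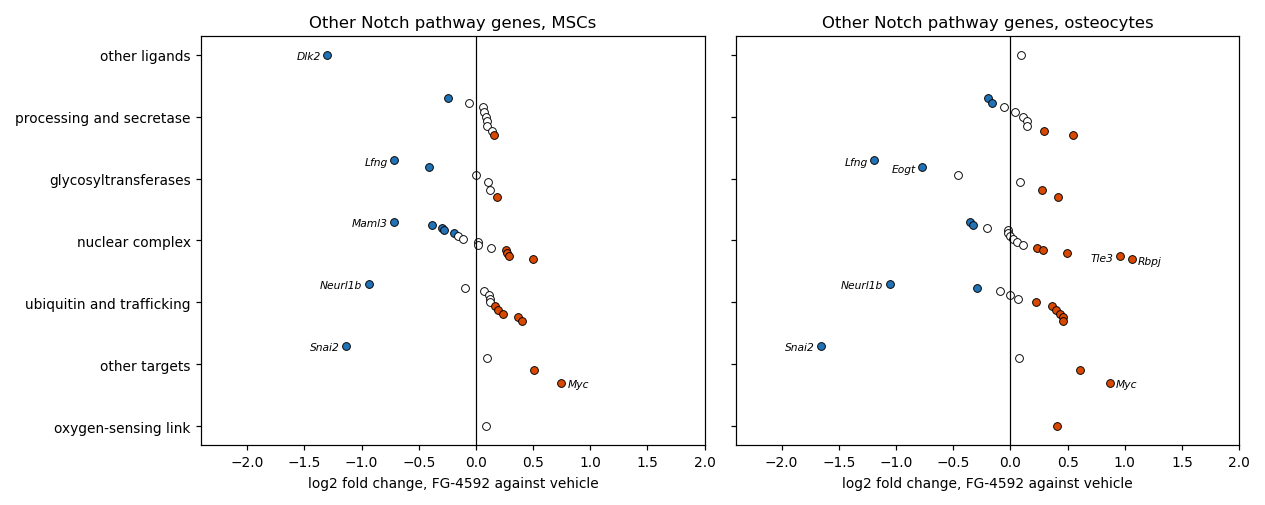
Response to FG-4592 of the other pathway genes that averaged 100 counts or more in some condition, in MSCs (left) and osteocytes (right). Each point is a gene (x axis, log2 fold change), rows are groups of genes, filled points passed an FDR of 0.05 (orange rose, blue fell), and genes beyond 0.7 are named. Snai2 was lowest in osteocytes (-1.66) and Rbpj highest (1.06).

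With differentiation under vehicle, 12 of the 52 genes rose and 17 fell, against 26% and 24.9% of all genes. Mfng, another Fringe, had 0 counts in all 6 MSC libraries and 4.23 to 7.99 CPM in vehicle-treated osteocytes, at least 125-fold higher against a floor of 3 counts per library. It had 4.34 to 4.96 CPM in FG-treated osteocytes, at least 97.1-fold higher. Like Heyl, Mfng could only be tested because it was higher in osteocytes, and it is counted among the genes that rose. The ubiquitin ligase gene Dtx3 rose by 0.69 and the corepressor gene Tle1 by 0.63, while Dlk2 (-1.40), Snai2 (-1.29) and the gamma-secretase subunit Aph1a (-0.55) fell. Under FG-4592, 15 rose and 11 fell, against 30.5% and 25.3%, with Dtx3 (0.96) and the ligand-directed ubiquitin ligase Mib2 (0.85) among the first and Snai2 (-1.81), Aph1a (-0.54) and Hes6 (-0.46), a HES family gene, among the second. Hif1an fell with differentiation under vehicle (-0.31) and had a log2 fold change of 0.01 under FG-4592.

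Across the 12 libraries, log2 CPM of pairs of the 8 genes with more than 10 counts in every library was described by Pearson's r, over points that share their condition and are not independent. Hes1 followed Notch1 (r = 0.969) and Jag1 (r = 0.954), Notch3 followed Notch4 (r = 0.948), and Jag1 followed Notch1 (r = 0.937). Hey1 ran against Notch1 (r = -0.861), Notch2 (r = -0.814) and the other target Hes1 (r = -0.809), and Dll1 against Notch3 (r = -0.819). All further pairs had an r of smaller size. Among 11252 protein-coding genes of sufficient counts, those most like a member were Adarb1, Fmo1 and Sulf2 for Notch1 (r from 0.993 to 0.994), Apbb3, Zfp839 and Fam43a for Notch2 (0.979 to 0.981) and Fn1, Ccng2 and Ccni for Notch3 (0.988 to 0.989). Notch4 was most like Atg13 (r = 0.981), Cited2 (0.974), which encodes a protein known to be induced by HIF, and Txnip (0.971). Jag1 was most like Tgfb3 (r = 0.998), Ms4a4d and Pald1, and Dll1 like Slc50a1 (0.946), Pard6g and Sod3. Of the targets, Hes1 was most like Spry1 (r = 0.989), Aim2 and Plagl1, Hey1 like Arxes2 (0.993), Itga5 and Sytl2, and Heyl like Klhl13 (0.990), Slc26a7 and Pank3.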

How the data were processed

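The authors sequenced mRNA libraries as paired reads of 100 bases, mapped them to mm10 (STAR 2.7.2a) and assigned those mapped uniquely to genes of Gencode M22 (featureCounts, Subread 1.6.2; mapping quality of at least 10, all overlapping genes, no strand). The authors deposited these counts per gene and library without normalization. From the counts, genes with over 10 counts in 3 or more of 12 libraries were fitted in edgeR 4.0.16 (R 4.3.3) with TMM factors, 1 coefficient per condition and the quasi-likelihood test, with Benjamini-Hochberg adjustment over all 16484 genes. Genes rose or fell at an FDR under 0.05, and both cutoffs add an absolute log2 fold change above 1. Intervals are at 95%. With 3 libraries against 3, an exact permutation test cannot go below p = 0.1 and was not used. The members and lists were chosen with earlier results of these data known. All 10 members were named, and, of other pathway genes, in each comparison the 3 largest rises and falls at an FDR under 0.05 among genes averaging 100 counts or more in some condition, with Rbpj and Hif1an always. Tle3, Lfng, Eogt, Ccnd1 and Hif1an values outside those comparisons complete the pairs, and the genes of marker lists were named after their values were seen. For each member with such a mean, the 3 genes of highest r were named. Promoters came from RefSeq GRCm38.p6. Alternatives were upper-quartile and RLE factors, library size without factors, no filter, filterByExpr, DESeq2 1.42.0, the likelihood ratio test, only the libraries compared, a replicate block and each library left out. Figures were drawn in matplotlib 3.10.9.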

Additional observations from a re-analysis of the deposited data

Results flagged for a closer look

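The response to FG-4592 differed between MSCs and osteocytes, by an interaction contrast in edgeR's quasi-likelihood test, for 6 of the 10 genes. All 6 had the more positive log2 fold change in osteocytes, as had 13.3% of all genes tested, while 11% had the more negative one. For Notch1, Jag1 and Hes1 the fold change was negative in both cell types and smaller in size in osteocytes. On the log2 scale the osteocyte response minus the MSC response was 0.53 for Notch1, 0.44 for Notch2, 0.31 for Notch3, 1.07 for Notch4, 0.57 for Jag1 and 0.71 for Hes1. In MSCs the fold changes behind them were -0.69, -0.06, 0.48, 0.43, -1.13 and -1.25, and in osteocytes -0.16, 0.37, 0.78, 1.50, -0.57 and -0.54, in the same order of genes. The differences of Notch3 and Hes1 were lost when single libraries were left out, and those of Notch1, Notch2, Notch4 and Jag1 kept an FDR under 0.05 under every alternative run.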

How the results depend on the processing

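Of 208 counts of genes that rose or fell, recomputed under the alternatives, 206 lay within 1.5 times the value reported, which leaves room for moves of 1 or 2 genes. On leaving out each library in turn, the members that fell with differentiation under vehicle ranged from 1 to 2, with 1 reached without vehicle-treated MSC replicate 2 or vehicle-treated osteocyte replicate 3, where Notch4 did not pass. In the same way the members that fell with FG-4592 ranged from 4 to 5 in MSCs and from 3 to 5 in osteocytes, and those with a higher response in osteocytes from 4 to 6, with 4 reached without vehicle-treated MSC replicate 2, where neither Notch3 nor Hes1 passed. Of 1037 log2 fold changes of members under an alternative, none turned direction after passing the test, 1014 kept their side of the threshold, 19 lost the call and 4 gained it. The lost calls were those of Hey1 with FG-4592 in MSCs, Dll1 with FG-4592 in osteocytes, Notch4 with differentiation under vehicle, and the response differences of Notch3 and Hes1, each on leaving out 1 library. The calls gained were those of Notch2 in MSCs and Notch1 in osteocytes. DESeq2, the likelihood ratio test, RLE factors, no filter and filterByExpr gave the same counts as reported. The median of all genes moved by at most 0.098 on the log2 scale between scalings. Same-numbered libraries did not deviate together (correlations from -0.053 to 0.054), so that their numbers are names only. With the replicate number as a block, 3 members rose and 5 fell in MSCs and 4 rose and 4 fell in osteocytes, as without it. Depth limits Hey2 in vehicle-treated MSCs and osteocytes and Heyl in all MSCs, where counts were at or below the floor.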
